A study of Mus musculus with 8 samples.

Results

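Ethanol was compared with no ethanol in NS5 cells held in TGF-beta1, on 4 of the 8 arrays of the series: 2 arrays of the group TGF-beta1 and 2 of the group Ethanol and TGF-beta1, chosen by the treatment in their labels. NS5 is named in the labels as a neural stem cell, with brain as its tissue and E11.5 as its age. Whether it is a single clone is not given in the sources used here. Every culture was grown first for 24 h in FGF2 and EGF on polyornithine and laminin (spelled poly-ornathine in the series' design text), then deprived of growth factors for 4 h. TGF-beta1 alone, or TGF-beta1 with ethanol at 400 mg/dl, was then given for 48 h, and total RNA was taken at once. The groups FGF2 and Ethanol and FGF2, with 2 arrays each, went through the same steps with FGF2 in place of TGF-beta1. The concentration of every growth factor is labelled as 10 ng/ul, a unit the arrays cannot check. The labels do not say whether replicates were separate cultures, so p-values measure the spread between these samples, which may be technical.

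TGF-beta1 is a secreted cytokine that binds a pair of receptor kinases and acts through Smad transcription factors, which switch on matrix genes such as fibronectin and the pathway's own feedback inhibitors. In many epithelial and neural progenitor cells it slows division, while FGF2 is a mitogen that keeps neural stem cells dividing. A dividing cell makes its transcripts in waves. Genes for DNA replication are switched on by E2F factors before S phase, and genes for chromosome condensation, the spindle and cytokinesis are switched on before mitosis through promoter elements bound by the MuvB complex with B-Myb and Foxm1. Levels of these transcripts therefore follow the share of cells that are cycling.

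On 1 of the ethanol arrays the matrix and TGF-beta target genes did not stand with the label. The signal of Fn1 (fibronectin) was 3015 and 4109 in TGF-beta1 (replicates 1 and 2, in this order throughout) and 124 and 8226 when ethanol was added. It was 119.7 and 139 in FGF2, and 6828 and 116 in Ethanol and FGF2. Signals are the MAS5 values of the arrays, in arbitrary units, compared for 1 gene at a time except where a sum over a list is stated. The signal of Pmepa1, a feedback inhibitor that TGF-beta induces, was 8093 and 7315 in TGF-beta1, 1081 and 7454 in Ethanol and TGF-beta1, 935 and 548 in FGF2 and 8198 and 1057 in Ethanol and FGF2. For both genes the first ethanol array labelled TGF-beta1 was thus near the level of the FGF2 arrays, and the first ethanol array labelled FGF2 near or above that of the TGF-beta1 arrays. Every value below that rests on Ethanol and TGF-beta1 replicate 1 or on Ethanol and FGF2 replicate 1 is open to this conflict. Over the 10916 genes tested, the log2 signals of Ethanol and TGF-beta1 replicate 1 correlated at 0.982 with those of Ethanol and FGF2 replicate 2 and at 0.959 with those of Ethanol and TGF-beta1 replicate 2 (across genes, which are not independent replicates). Arrays are kept in the groups of their labels, and values of Ethanol and TGF-beta1 replicate 2 alone stand beside those of both.

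The neural stem markers Sox2, Slc1a3, Fabp7 and Msi1 were all bright enough to be tested, with Sox2 signals of 7791 and 7269.5 in TGF-beta1 and 10961 and 9453 with ethanol, while Prom1 was not. Astrocyte and oligodendrocyte markers were bright too. Aqp4 had 6899 and 9439 in TGF-beta1 and 12020 and 13807 with ethanol, S100b 2659 and 3160 against 2993 and 2339, and Olig1 7388 and 9994 against 10133 and 8139. The oligodendrocyte markers Sox10 and Mbp lay below the level set for testing. Of 12 microglial and macrophage markers 1 (Cd68) reached that level, and of 10 endothelial markers 0 did. Summed over the list, microglial markers had signals of 167 and 462 in TGF-beta1 and 322 and 425 with ethanol. Endothelial markers summed to 142 and 294 against 303 and 334. Nearly all signals in these sums are of genes below the level set for testing. Median signals over all probe sets were 50.6 and 80.7 in TGF-beta1 and 70.8 and 77.96 with ethanol, so that low signals sat lower on TGF-beta1 replicate 1. The ratio of the 3' to the 5' Gapdh probe set, which rises when RNA is degraded, was 1.70 and 2.20 in TGF-beta1 and 1.93 and 2.06 with ethanol.

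With ethanol, the transcripts of the machinery of cell division were several-fold lower in TGF-beta1, and a small set of genes, in part neuronal, was higher. Limma called 122 falls and 8 rises among 10916 genes at an adjusted p of 0.05, which is 1.12% and 0.0733% of the genes tested and 1.19% for both directions. All 130 changed at least 2-fold; 102 of the falls were at least 4-fold and 44 at least 8-fold. Falls ran from −1.29 to −4.36 on the log2 scale. In RNA from whole cultures, fewer cycling cells and less of these transcripts per cell cannot be told apart. On each of the ethanol arrays, all of these falls lay below both TGF-beta1 arrays and all rises above both, against 25.7% and 22.2% of all genes; the test selects for this. Of the falls, 111 were deeper on replicate 1 than on replicate 2, and their median on replicate 2 was −2.44 relative to the TGF-beta1 mean.

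The count of calls depended on single arrays. For replicate 2 alone against both TGF-beta1 arrays, limma called 0 genes. With 1 array in this arm, its SEs and p-values take the spread from the other groups and assume that the array varies like them, and those groups include the doubted array of Ethanol and FGF2. The smallest adjusted p was then 0.161, and 657 genes (6.02%) had an unadjusted p under 0.05. Limma also called 0 without TGF-beta1 replicate 1 or without TGF-beta1 replicate 2, where 532 and 810 genes had an unadjusted p below 0.05, and it called 62 falls and 3 rises without Ethanol and TGF-beta1 replicate 2. On replicate 2 alone, each of the 122 falls was at least 2-fold below both TGF-beta1 arrays and each of the 8 rises at least 2-fold above both, as 2.93% and 2.26% of all genes were. That array took part in the calls, so these counts are no independent test.

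**Figure D1:**
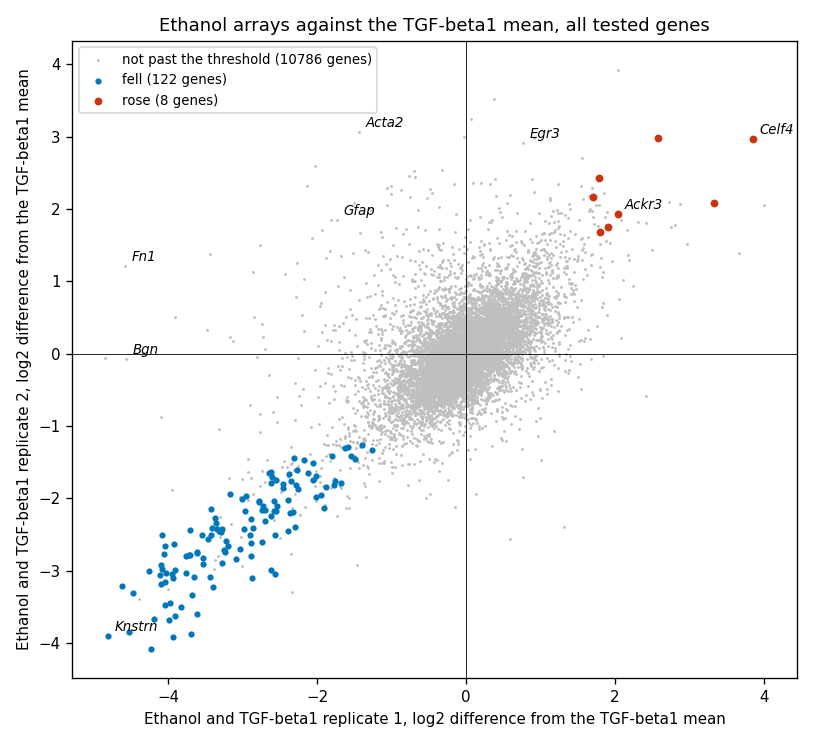
Each point is 1 of the 10916 genes tested, with its log2 difference from the mean of the TGF-beta1 arrays on Ethanol and TGF-beta1 replicate 1 (horizontal) and on replicate 2 (vertical). The 122 falls lie at the lower left on both axes, the 8 rises at the upper right, and Fn1, Bgn, Acta2 and Gfap lie far to the left with replicate 2 level or high.

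On a gene's brightest probe set, which all fits use unless stated, the largest fall was that of Knstrn, a kinetochore and spindle protein needed for the timely separation of sister chromatids. Its signal was 3814 and 3093 in TGF-beta1 and 99.0 and 207 in Ethanol and TGF-beta1, a log2 fold change of −4.36 ± 0.57 (moderated SE, n = 2 against 2, adjusted p = 0.0195 by limma). Both ethanol arrays were far below both controls. Knstrn lies on chromosome 2 from 118813988 to 118837210 in GRCm38.p6. The signal of Cdca3, a trigger of mitotic entry, was 4050.1 and 3406 in TGF-beta1 and 138 and 237 with ethanol (−4.19 ± 0.59, adjusted p = 0.0205). That of Pimreg, a substrate of the anaphase-promoting complex, was 1589.9 and 1572 against 61.4 and 70.9 (−4.16 ± 0.56, adjusted p = 0.0195). Replicate 2 alone held these large differences, at −3.91 ± 0.68 for Knstrn and −4.09 ± 0.71 for Pimreg, and an adjusted p of 0.161 for both when limma was fitted without replicate 1.

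The choice of probe set moved many of these values. With the mean over all probe sets of a gene, dim ones included, Knstrn was at −2.78 (adjusted p = 0.0548), Cdca3 at −1.69 (adjusted p = 0.0799) and Pimreg, still past the test, at −4.16, so the order of the falls does not hold across that choice. Under it 52 of the 122 falls were not called and 49 moved by over 1.5 times in fold. The topoisomerase gene Top2a was then at −0.92 (adjusted p = 0.342) and the spindle gene Aspm at −1.19 (adjusted p = 0.339). Of the falls given with a fold change, Aurka, Aurkb, Brca1, Ccne1, Cdc7, Cdkn3, Cdt1, Chek1, Clspn, Dbf4, Esco2, Exo1, Hmgb2, Incenp, Mad2l1, Mcm3, Mcm6, Mrc2, Ncapd2, Ncapg, Oxct1, Pold1, Rbl1, Rrm1 and Tpx2 also lost the call. For Cdkn3 and Mad2l1 the fold change itself stayed at −3.79 and −2.85, and only the adjusted p moved, to 0.0524 and 0.0548 by limma.

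The other 12 of the 15 largest falls were those of Kif23 (−3.93), Ccnb2 (−3.92), Pttg1 (−3.92), Hmmr (−3.89), Birc5 (−3.83), Cdkn3 (−3.79), Ncapg (−3.77), Tk1 (−3.76), Prc1 (−3.71), Ube2c (−3.66), Pbk (−3.64) and Cdc20 (−3.64). Their proteins act in mitosis or its timing, apart from the thymidine kinase Tk1. Birc5 (survivin), part of the passenger complex that corrects spindle attachments, was among the brightest: 8706 and 9924 in TGF-beta1 and 563 and 705 with ethanol. Kif23, the kinesin of the central spindle, had 572 and 988 against 27.2 and 27.6. In the 4 arrays the groups stayed apart for each of these 12 genes. Ethanol signals near 30 to 50, as for Kif23 and Cdkn3 (47.5 and 39.2), are close to the added constant of 23.66, which limits how large a fall could be measured.

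**Figure D2:**
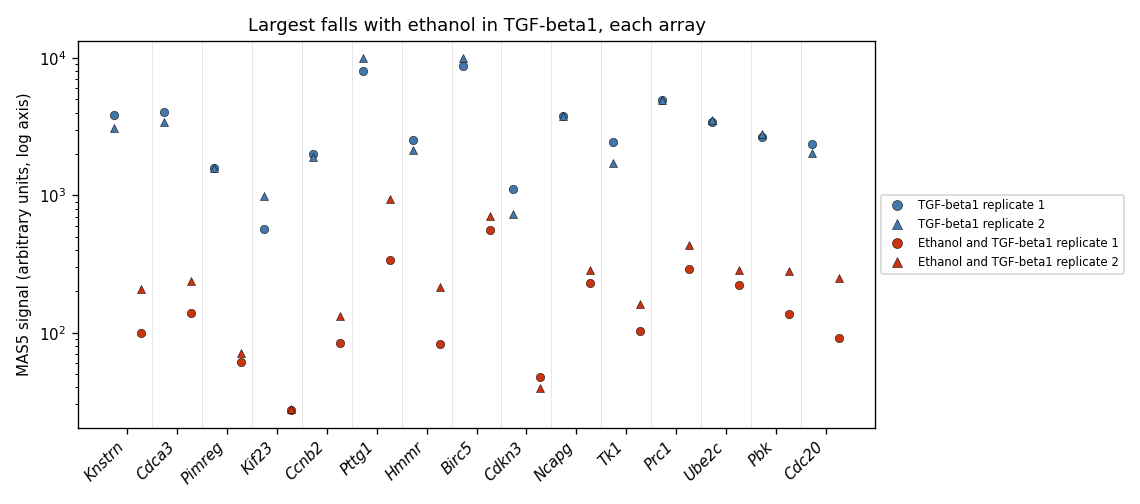
MAS5 signal (vertical, log axis) of the 15 largest falls on each array; blue is TGF-beta1, red is Ethanol and TGF-beta1, circles are replicate 1 and triangles replicate 2. In every gene both ethanol arrays lie below both TGF-beta1 arrays, as for Pimreg at 61.4 and 70.9 against 1589.9 and 1572.

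Promoters of the falls are shown because these genes moved together and because a shared element is known for the late cell cycle genes. RefSeq promoters (GRCm38.p6, 250 bases before to 50 after the start) were at hand for 100 of the 122 falls, 5 of the 8 rises and 8927 of the genes tested. The cell cycle homology element, searched as TTTGAA or TTCGAA on both strands, stood in 51.0% of promoters of falls, 0 of the 5 of rises, 16.1% of genes tested and 21.7% of all 27025 genes of the table. CCAAT, searched on both strands, stood in 59.0% of falls, 2 of the 5 of rises, 43.8% of genes tested and 41.1% of all. An E2F site, searched as TTTCCCGC or TTTGGCGC on both strands, stood in 16.0% of falls, 1 of the 5 rises, 3.60% of genes tested and 1.80% of all. Both the element and CCAAT were present in 40 of the 100 promoters of falls and 7.91% of genes tested. These shares describe letters in a window and are no evidence of binding. The promoters of the largest falls with the element follow, from 120 bases before the start to 30 bases from it, 5′ to 3′ on the gene's strand, with TTTGAA or TTCGAA and CCAAT (on either strand) in capitals.
Cdca3, chr6:124830056-124830205, plus strand: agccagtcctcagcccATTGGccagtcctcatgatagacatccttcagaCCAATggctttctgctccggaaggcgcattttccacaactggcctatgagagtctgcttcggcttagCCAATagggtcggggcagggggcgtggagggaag
Kif23, chr9:61946770-61946919, minus strand: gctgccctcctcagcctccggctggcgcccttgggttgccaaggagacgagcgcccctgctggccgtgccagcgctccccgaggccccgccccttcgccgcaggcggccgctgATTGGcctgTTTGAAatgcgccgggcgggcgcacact
Ccnb2, chr9:70421525-70421674, minus strand: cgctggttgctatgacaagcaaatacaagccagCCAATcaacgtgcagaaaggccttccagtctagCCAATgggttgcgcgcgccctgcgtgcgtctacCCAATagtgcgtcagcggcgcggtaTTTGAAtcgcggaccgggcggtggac
Hmmr, chr11:40733408-40733557, minus strand: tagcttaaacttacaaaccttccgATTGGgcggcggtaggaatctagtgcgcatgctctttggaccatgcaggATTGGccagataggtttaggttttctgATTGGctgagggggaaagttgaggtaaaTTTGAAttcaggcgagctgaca
In Kif23, Ccnb2 and Hmmr the element began 3, 5 and 9 bases from the start, counted from 1 at the start, with CCAAT on 1 strand or the other upstream of it. In Cdca3 it began at base 31, just past the stretch shown.

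By list medians, genes of mitotic entry and exit, the spindle and the centromere were lower by more than those of DNA replication, and those by more than G1 regulators. Condensin and cohesin genes, at −1.34, lay between the replication and G1 lists. These differences between lists were not tested. Members named below that did not pass were in part picked after their values were seen. Of the 20 tested regulators of mitotic entry and exit, 14 fell, and the list median was −2.93, against −0.01 over all genes tested. The background for falls, here and in each list below, is 1.12%. The signal of Cdk1, the kinase that drives mitosis, was 4171 and 3308 in TGF-beta1 and 226 and 446 with ethanol (−3.45 ± 0.54, adjusted p = 0.0236). Its partner Ccna2, cyclin A2, had 2413 and 2499.9 against 221 and 439 (−2.88 ± 0.45, adjusted p = 0.0236). Both were several-fold lower on each ethanol array, as were the mitotic kinases Aurka (−3.26) and Plk1 (−2.97), the centriole kinase Plk4, and Wee1 (−2.42), the kinase that restrains Cdk1. The inhibitor of the anaphase-promoting complex Fbxo5 and its activator Cdc20 both fell. The smallest fall was that of Cks1b, a Cdk-binding subunit, with 9083 and 9532 against 3519.9 and 3879 (−1.33). Cdc25c, the phosphatase that activates Cdk1, had 1464 and 1355 against 44.7 and 113 and did not pass (−3.89 ± 0.83, adjusted p = 0.0747). Another Cdc25 phosphatase gene, Cdc25b, had 3357 and 2513 in TGF-beta1 and 2876 and 1355 with ethanol, inside the control range on replicate 1 and below it on replicate 2.

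Spindle, kinesin and cytokinesis genes fell in 18 of 27 (median −2.90). Prc1, which bundles microtubules of the central spindle, had 4936 and 4969 in TGF-beta1 and 293 and 433 with ethanol. Tpx2, the activator of Aurora A, had 4179.6 and 5236 against 262 and 506 (−3.60 ± 0.43, adjusted p = 0.0195). Kif11, the motor that pushes spindle poles apart, had 1331 and 1451 against 80.7 and 149.8 (−3.39), and Racgap1, the partner of Kif23 in the midzone, 2612 and 2220.1 against 169 and 264 (−3.37). The groups were apart for all of them. Also among the falls were Aspm (−3.25), a spindle pole gene mutated in microcephaly, the minus-end motor Kifc1 (−2.71), Nusap1, Ckap2, Ckap2l, Cep55, Tacc3, Spag5, Kif2c, Kif20a and Kif18a. On each ethanol array 24 of the 27 were at least 2-fold below both controls (background 4.62% on replicate 1 and 2.93% on replicate 2). Anln, Ect2, Kif4, Kif18b, Kif20b and Kif22 were among them without passing. Ect2, the exchange factor that starts cytokinesis, had 4605 and 3104 against 359.9 and 770.1 (adjusted p = 0.0612). Of the 3 others, the tubulin-binding Stmn1 had 14958 and 24157 against 13802 and 14354, and Ckap5 1124 and 1446 against 976 and 1291. Kif15 was the 1 member higher on both ethanol arrays, at 51.3 and 99.2 against 208 and 231, and did not pass (adjusted p = 0.516).

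Of 24 centromere, kinetochore and passenger complex genes, 19 fell (median −2.95). All 4 passenger subunits fell: beside Birc5 these were the kinase Aurkb, with 1326 and 819.6 in TGF-beta1 and 45.2 and 106 with ethanol (−3.50), the borealin gene Cdca8 (−3.53) and the scaffold Incenp (−2.85). All 4 subunits of the NDC80 complex, which grips microtubules, also fell: Ndc80 had 473 and 559 against 9.31 and 42.4 (−3.53 ± 0.55), Nuf2 2808 and 2248 against 125 and 311 (−3.51), Spc24 1226 and 934 against 66.0 and 66.7 (−3.60), and Spc25 lay near them. The spindle checkpoint genes Ttk (−2.85), Bub1 (−3.25), Bub1b and Mad2l1 (−2.85) and the cohesin protectors Sgo1 and Sgo2a were also lower past the test, as were Cenph, Cenpi, Cenpk, Cenpn and Zwilch. Cenpa, the centromeric histone, had 1764 and 1208 against 69.1 and 132 and an adjusted p of 0.0634 (−3.63 ± 0.74). Zwint, another kinetochore gene, stood level at 7863 and 6928 against 7908 and 9052.

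Within the complexes that shape chromosomes, members of condensin fell and the core of cohesin did not pass. The condensin I subunits Ncapg (3762 and 3801 in TGF-beta1, 229 and 285 with ethanol), Ncaph (808 and 899.5 against 52.3 and 93.1, −3.22) and Ncapd2 (1033 and 1349 against 173 and 128, −2.80) fell, as did Ncapg2 of condensin II (−2.41) and Esco2, which acetylates cohesin in S phase (1551 and 1039 against 99.2 and 115, −3.31). The core ATPases Smc2 (3519 and 2883 against 897 and 1166) and Smc4 (2179.8 and 2056 against 558 and 783) were lower on both ethanol arrays without passing (adjusted p = 0.151 and 0.0646). Cohesin itself, which also loops DNA outside division, was close to the controls: Rad21 had 4894 and 4054 against 4224 and 4490.2, Smc3 605 and 843 against 678 and 798 and Stag2 2874 and 2119 against 2617 and 2933. In all, 5 of 16 members fell, with a median of −1.34; the difference between the complexes was not tested.

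**Figure D3:**
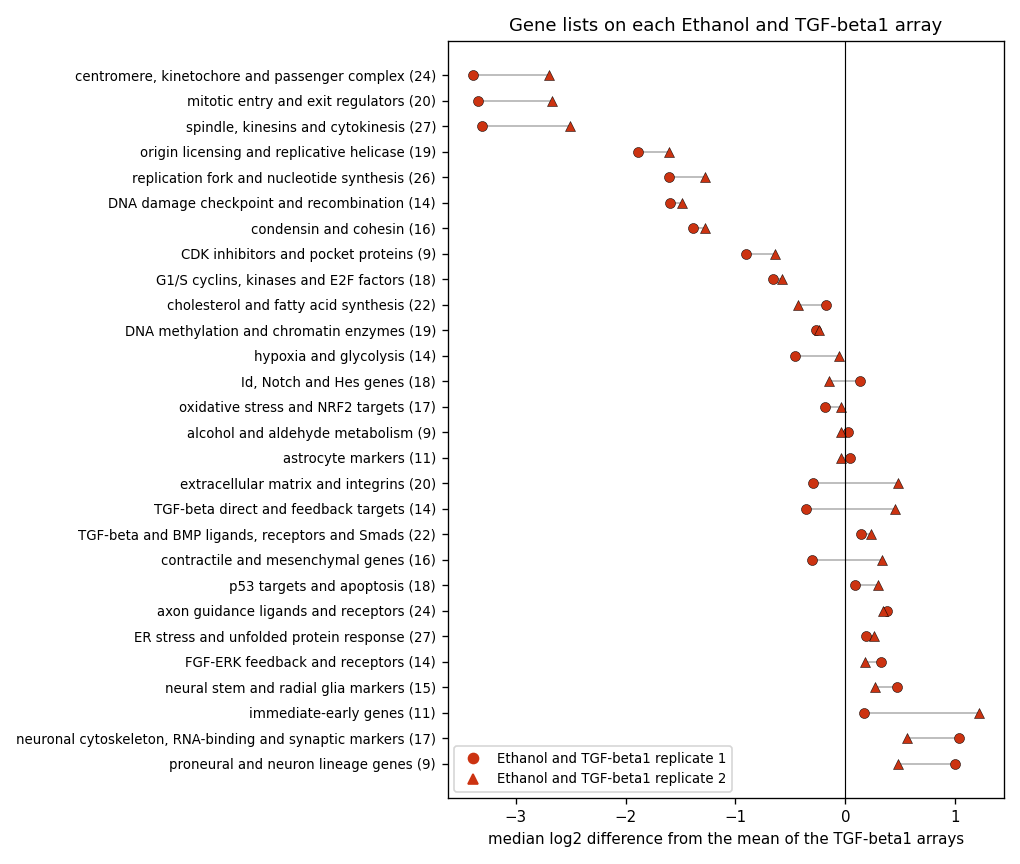
Median log2 difference from the mean of the TGF-beta1 arrays for each gene list with 5 or more tested members (number in brackets), on Ethanol and TGF-beta1 replicate 1 (circle) and replicate 2 (triangle). The lists of mitotic entry and exit, spindle and centromere genes lie near −3 on both arrays. The matrix, TGF-beta target, contractile and immediate-early lists lie higher on replicate 2 than on replicate 1.

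Origin licensing and helicase genes fell in 8 of 19 (median −1.82). The largest fall among them was that of Gmnn, the geminin gene, whose product blocks relicensing: 1986 and 1666 in TGF-beta1 and 126 and 249.9 with ethanol (−3.18 ± 0.43, adjusted p = 0.0195). The loaders Cdc6 (471 and 279 against 35.7 and 62.8, −2.43) and Cdt1 (1046 and 682 against 146 and 232, −2.06) and both parts of the origin-firing kinase, Cdc7 (−2.02) and Dbf4 (−1.61), fell too. Of the 6 MCM helicase subunits, Mcm3 (1711 and 1168 against 209.9 and 391, −2.21), Mcm6 (−1.87) and Mcm7 (−1.44) passed, although 1 of the 3 probe sets of Mcm6 went the other way. Mcm5 (1659 and 967 against 136 and 364) missed the threshold narrowly (−2.37 ± 0.46, adjusted p = 0.0513). With the mean of its probe sets Mcm5 was past it (−2.21, adjusted p = 0.0169 by limma). Mcm2 had 734 and 447 against 154 and 236, and Mcm4, at 7033 and 4624 against 3827 and 4985, was below the control range on replicate 1 and inside it on replicate 2.

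At the replication fork and in nucleotide synthesis, 8 of 26 fell (median −1.47). Tk1, which salvages thymidine in S phase, had 2442 and 1719.8 in TGF-beta1 and 102 and 163 with ethanol. Top2a, the topoisomerase that untangles replicated DNA, had 5792 and 6203 against 373 and 948 (−3.28 ± 0.43, adjusted p = 0.0195), and 1 of its 2 probe sets above the signal filter disagreed in direction. The primase subunit Prim1 (2904 and 2708 against 434 and 575, −2.43), the ligase Lig1 (−2.16), the polymerase delta subunit Pold1 (−1.89), the flap nuclease Fen1 (−1.86) and the dUTPase Dut (−1.76) fell. Of ribonucleotide reductase, which makes deoxynucleotides, Rrm1 fell (1652 and 1380.3 against 237 and 432, −2.15). Rrm2 had 10753 and 13208 against 2185 and 3247 and did not pass (−2.15 ± 0.42, adjusted p = 0.0513). With the mean of its probe sets Rrm2 was past the threshold (−2.67, adjusted p = 0.0169 by limma). Pcna, the sliding clamp, had 8559.7 and 9149 against 2850.2 and 4016 and did not pass (adjusted p = 0.0542).

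G1 regulators moved less. Of 18 tested cyclins, kinases and E2F factors of G1/S, 2 fell (median −0.69). They were Ccne1, cyclin E1, with 432 and 482 in TGF-beta1 and 54.2 and 132 with ethanol (−2.13 ± 0.41, adjusted p = 0.0495), and E2f7, a repressor among the E2F factors, with 521 and 376 against 33.3 and 48.0 (−2.87 ± 0.43, adjusted p = 0.0225). Ccnd1, cyclin D1, the sensor of mitogens, had 2487 and 1877 against 586 and 815, lower on both ethanol arrays without passing (−1.61 ± 0.38, adjusted p = 0.113). The kinase Cdk4 was close to level (6148 and 4357 against 4778 and 4428), and Myc had 302 and 549 against 441 and 892, inside the control range on replicate 1 and above it on replicate 2. Among 9 CDK inhibitors and pocket proteins, 1 fell and 0 rose: Rbl1 (p107), with 1366 and 1190.2 against 240.3 and 224 (−2.34 ± 0.37, adjusted p = 0.0236). Cdkn1a (p21) had 3519.98 and 2666 in TGF-beta1 and 1174 and 1953 with ethanol, below both controls on each array (adjusted p = 0.623). Cdkn2b (p15), an inhibitor that TGF-beta induces in many cells, had 422 and 375 against 201 and 802, on opposite sides of the controls. Cdkn1b (p27) was at 4106 and 3376 against 4703 and 3904 and Rb1 at 2708 and 2601 against 3509.7 and 3846.

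Checkpoint and recombination genes fell in 4 of 14 (median −1.44): the kinase Chek1 (990.3 and 569 in TGF-beta1, 81.3 and 136 with ethanol, −2.58), its mediator Clspn (−2.51), the nuclease Exo1 (−2.68) and Brca1 (965 and 715 against 113 and 249.8, −2.14). The upstream kinase gene Atm did not pass, with 1194 and 1549 against 907 and 938. Of 19 DNA methylation and chromatin enzymes, 1 fell: Uhrf1, which guides maintenance methylation behind the fork, with 5062 and 4468 against 693 and 1048 (−2.45 ± 0.33, adjusted p = 0.0195). Dnmt1, the maintenance methyltransferase, had 3837 and 4292 against 1792 and 1975 (adjusted p = 0.0872) and the Polycomb enzyme Ezh2 3230.3 and 3272 against 1513 and 1541 (adjusted p = 0.121). Both were below the controls on each ethanol array.

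In all, 79 of the 122 falls were among the 173 tested genes of the 9 cell division lists, and 147 of these 173 had both ethanol arrays below both controls, where 25.7% of all genes did. Outside every list lay 42 falls, of which the following were picked after their values were seen. Mki67, the Ki-67 proliferation antigen, had 2506 and 3244 in TGF-beta1 and 237 and 462 with ethanol (−3.01). Melk (−3.18), the chromatin protein gene Hmgb2 (−2.63) and the histone variant gene H2ax (−2.88) also rise in cycling cells. Lmnb1, lamin B1 of the nuclear envelope, was bright and fell less, from 9849 and 13257 to 3896 and 4273 (−1.48). Falls with no established place in division were the endocytic collagen receptor gene Mrc2 (488 and 388 against 95.5 and 94.5, −1.95) and the ketone body enzyme gene Oxct1 (4424 and 4264 against 1793 and 1721, −1.29). For 59 of the 63 falls with several probe sets above the filter, every such probe set was lower with ethanol. Atad2, Mcm6, Pclaf and Top2a were the exceptions. The probe set that gave the call is among those counted and dimmer ones are left out, so this agreement is partly built in. The share over all genes was not worked out.

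The 8 rises included neuronal and cell surface genes beside Ntn4 and Dtna, and 6 of the 8 stood in the lists. Ackr3, an atypical receptor that scavenges the chemokine Cxcl12 and steers migrating neurons, had 873 and 1329.7 in TGF-beta1 and 4495 and 4177 with ethanol, a log2 fold change of 1.98 ± 0.27 (adjusted p = 0.0195). Its partner receptor Cxcr4 had 5294 and 4969 against 7791 and 7949, above both controls without passing (adjusted p = 0.516). Ntn4, a laminin-like netrin of basement membranes, had 441 and 457 against 1618 and 1499 (1.74 ± 0.25, adjusted p = 0.0218) and lies on chromosome 10 from 93641049 to 93745972. Nkain2, a neuronal membrane protein that interacts with the sodium pump, had 611 and 656 against 2437 and 2180.1 (1.83 ± 0.24, adjusted p = 0.0195). In these 3 rises the replicates of each group lay close together, and the gap between groups was far wider than within them.

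Dtna, the dystrobrevin gene of the dystrophin complex, had 176 and 167 in TGF-beta1 and 611 and 849 with ethanol (1.93 ± 0.30, adjusted p = 0.0236), with 5 of its 6 probe sets above the filter higher. With the mean over all its probe sets it was at 0.73 (adjusted p = 0.512), and the call was lost. In FGF2 it had 789 and 899.8, and 332 and 522 with ethanol, so ethanol arrays were above the controls in 1 growth factor and below them in the other. Sez6, a neuronal surface protein of dendrites and synapses, had 272 and 503 against 1333 and 2105 (2.11 ± 0.34, adjusted p = 0.0246). Dcx, doublecortin, the microtubule-binding protein of migrating neuroblasts, had 56.5 and 109 against 1013 and 413 (2.70 ± 0.52, adjusted p = 0.0488). The proneural factor Neurod4 had 10.3 and 69.5 against 311 and 423 (2.78 ± 0.49, adjusted p = 0.0366) and the neuronal RNA-binding protein gene Celf4 14.9 and 69.9 against 846 and 447 (3.41 ± 0.62, adjusted p = 0.0403). For the last pair the signal of TGF-beta1 replicate 1 was under the added constant, so their size depends on it. With the mean of a gene's probe sets 5 of the 8 rises were not called: beside Dtna these were Sez6 (1.13, adjusted p = 0.254), Dcx (1.85, adjusted p = 0.0596), Neurod4 (1.70, adjusted p = 0.139) and Ntn4 (1.41, adjusted p = 0.0674). Replicate 2 alone was above both controls for all 8, from 1.69 for Ntn4 to 2.99 for Neurod4 over the TGF-beta1 mean. For 7 of the 8, all but Celf4, both FGF2 arrays without ethanol were above both TGF-beta1 arrays too, as for Ntn4 at 2098 and 1361, where 15.8% of all genes were.

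**Figure D4:**
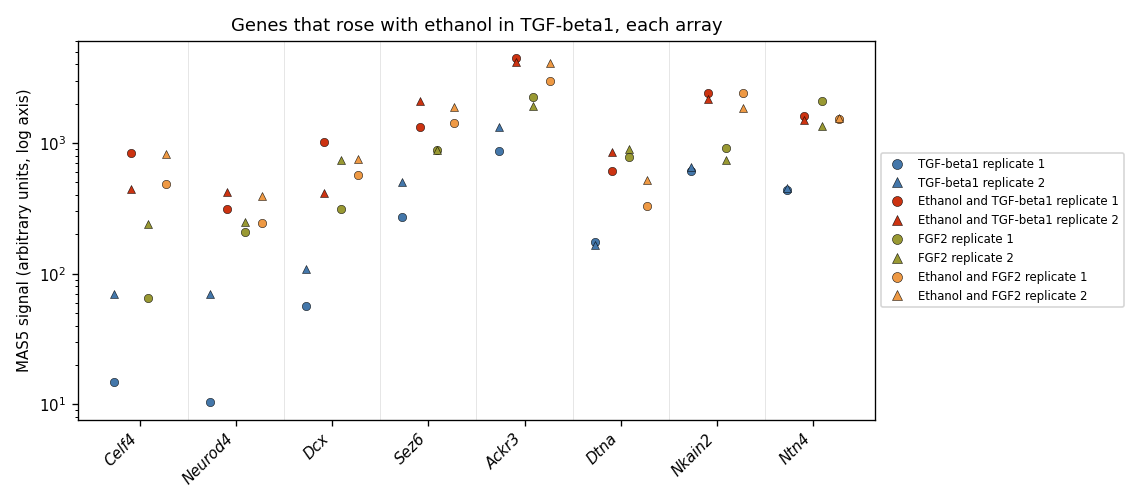
MAS5 signal (vertical, log axis) of the 8 rises on all 8 arrays of the series, by group (colour) and replicate (circle 1, triangle 2). Both red ethanol arrays lie above both blue TGF-beta1 arrays in each gene, and in all but Celf4 both FGF2 arrays without ethanol stand above both TGF-beta1 arrays.

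The other neuronal genes tested did not pass. Of 17 tested neuronal cytoskeleton, RNA-binding and synaptic markers 3 rose (background 0.0733%) and 12 had both ethanol arrays above both controls (background 22.2%). Their median was 0.74, with 1.04 on replicate 1 and 0.56 on replicate 2, and 0.32 without TGF-beta1 replicate 1. Neuronal tubulin Tubb3 had 20.3 and 96.5 in TGF-beta1 and 301 and 215 with ethanol (1.94 ± 0.55, adjusted p = 0.217). Map2, a dendritic microtubule protein, was bright at 5331 and 6588 against 12179 and 8107. Others overlapped with the controls, as Dpysl3, a growth cone protein, at 8139 and 11386 against 10749 and 7983, and Elavl3, a neuronal RNA-binding protein, at 46.3 and 76.4 against 95.8 and 60.3. Stmn2, a marker of differentiated neurons, lay below the level tested on these arrays. Of 9 proneural and lineage genes, 1 rose (Neurod4); Insm1, a factor of basal progenitors, had 220.01 and 244 against 508 and 889.5 (1.45 ± 0.33, adjusted p = 0.0996) and Gad1, the GABA enzyme, 54.0 and 188 against 661 and 424 (2.11 ± 0.63, adjusted p = 0.260). Sox11, a factor of immature neurons, had 9311 and 15197 against 13564 and 8295, on either side of the lower control. The median of this list was 0.82, and 0.12 without TGF-beta1 replicate 1. Whether the low signals of TGF-beta1 replicate 1 take part in these differences was not tested.

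Among 24 axon guidance genes, Ntn4 was the 1 that rose (background 0.0733%) and 11 had both ethanol arrays above both controls (background 22.2%). Dcc, the netrin receptor, had 39.6 and 74.5 in TGF-beta1 and 231 and 361 with ethanol (1.99 ± 0.43, adjusted p = 0.0741). Of 15 neural stem and radial glia markers 0 passed, with a median of 0.32: nestin (Nes) had 447 and 367 against 601 and 1254, Sox9 4342 and 3421 against 6111 and 7591, and Fabp7 16416 and 22613 against 22445 and 14386. Id, Notch and Hes genes also gave 0 of 18. Astrocyte markers (0 of 11 tested), oligodendrocyte lineage markers (0 of 4) and pluripotency markers (0 of 3) held no call either. The Notch target Hey1 came nearest, with 10369 and 8907 against 4799.9 and 3244 (−1.28 ± 0.27, adjusted p = 0.0691).

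TGF-beta target genes differed between the ethanol arrays. By limma 0 of 14 tested TGF-beta targets passed, with 0 at an unadjusted p under 0.05 (1035 of 10916 over all genes). Their median was −0.35 on replicate 1 and 0.46 on replicate 2. Against both TGF-beta1 arrays, 3 targets (Pmepa1, Ldlrad4 and Tgif1) were at least 2-fold lower on replicate 1 (background 4.62%) and 0 on replicate 2. Ldlrad4 had 428 and 703 in TGF-beta1 and 131 and 731 with ethanol, and Tgif1 689.6 and 758 against 285 and 766. The inhibitory Smad7 had 576 and 188 against 239.6 and 614, and the corepressor Skil 7815 and 7817 against 5367 and 9598. On replicate 2 these targets were above the lower control, while on replicate 1 Pmepa1, Ldlrad4, Tgif1 and Skil lay below both. The receptors Tgfbr1 (2122 and 1422 against 2577 and 1991) and Tgfbr2 (378 and 228 against 293 and 462) and the transducers Smad2 (457 and 566 against 545 and 494), Smad3 and Smad4 did not pass, nor did any of 22 ligands, receptors and Smads.

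The 10 genes on which the ethanol arrays differed most were all lower on replicate 1: Fn1, Pvalb, Mfap4, Fgl2, Acta2, Bgn, Tm4sf1, Padi2, Vip and Anxa2. Biglycan (Bgn) had 2113 and 977 in TGF-beta1, 38.1 and 1366 with ethanol, 64.7 and 35.1 in FGF2 and 1055 and 35.0 in Ethanol and FGF2. The microfibril gene Mfap4 had 3659 and 1754, 65.2 and 2437, 98.1 and 69.7 and 1149 and 9.20 in the same order. Smooth muscle actin (Acta2) had 53.02 and 88.4 in TGF-beta1 and 10.5 and 751 with ethanol, and the actin-binding Tagln 27.5 and 108 against 26.8 and 449, high on replicate 2 alone. The astrocyte filament gene Gfap had 2102 and 2461 against 668 and 8284, below both controls on replicate 1 and above both on replicate 2. Across all genes, 18 were at least 2-fold below both controls on replicate 1 and at least 2-fold above both on replicate 2, and 0 the other way round. Medians of the matrix and integrin list were −0.30 and 0.48, and of the contractile list −0.30 and 0.33, with 0 of 20 and 0 of 16 past the test. Col27a1, a fibrillar collagen, was the matrix gene nearest to it (124 and 188 against 780.1 and 412, 1.74 ± 0.36, adjusted p = 0.0644). Of 8 fibroblast and meningeal markers 4 were tested. The list summed to 1415 and 1297 in TGF-beta1 and 543 and 1487 with ethanol. Of these sums Col1a1 alone gave 1068 and 810 against 128 and 754. The list's part in these values was not tested.

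**Figure D5:**
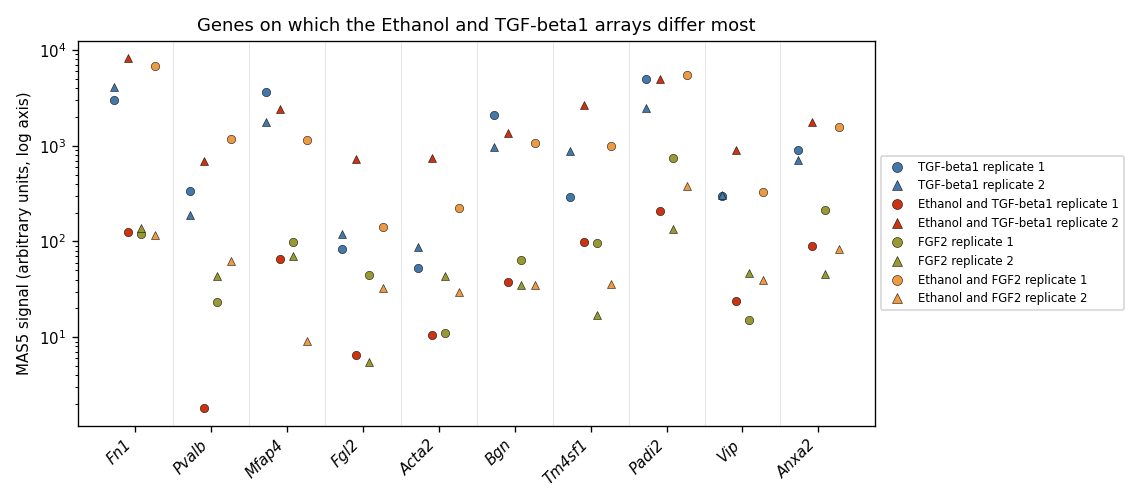
MAS5 signal (vertical, log axis) of the 10 genes on which the Ethanol and TGF-beta1 arrays differ most, on all 8 arrays, by group (colour) and replicate (circle 1, triangle 2). The red circle (Ethanol and TGF-beta1 replicate 1) lies below both TGF-beta1 arrays and near the FGF2 arrays or lower, as for Fn1 at 124, and the red triangle with or above the TGF-beta1 arrays, as for Fn1 at 8226.

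On replicate 2 alone, the genes farthest below both TGF-beta1 arrays were Pimreg, Knstrn, Cdca3, Ccnb2, Ncapg, Birc5, Cdkn3, Kif23, Ube2c and Prc1, all of them falls with both arrays. Those farthest above were Nupr1, Acta2, Glycam1, Egr3, Socs3, Col4a5, Map3k7cl, Fgl2, Celf4 and Neurod4, of which Celf4 and Neurod4 rose with both. The stress gene Nupr1 had 95.7 and 80.4 in TGF-beta1 and 185 and 856 with ethanol, and Socs3, a feedback inhibitor of cytokine signalling, 204 and 327 against 254 and 2226. For both, Ethanol and FGF2 replicate 1 was high as well (1989 and 2183) and Ethanol and FGF2 replicate 2 lower (97.6 and 868). Egr3, an immediate-early factor, had 92.0 and 131 against 204 and 990.00 and was high on both Ethanol and FGF2 arrays (997 and 1338). Of 11 immediate-early genes 6 were at least 2-fold above both controls on replicate 2 (background 2.26%) and 0 on replicate 1 (background 1.35%), and 0 passed the test. Egr2 had 302 and 594 against 653 and 2033 and Fos 9231 and 13682 against 14528 and 18830.3.

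Stress and metabolic lists gave 0 calls each by limma. Over all 10916 genes tested, 1035 had an unadjusted p under 0.05, to be set beside the list counts below. Of 27 genes of the unfolded protein response, 13 had both ethanol arrays above both controls (background 22.2%), with a median of 0.24 and 2 at an unadjusted p under 0.05. Xbp1, its transcription factor, had 594 and 409.7 in TGF-beta1 and 876 and 1018 with ethanol (adjusted p = 0.465), and the chaperone Hspa5 6852 and 9264 against 9073 and 9055. Of 22 cholesterol and fatty acid synthesis genes, 18 were below 0 (5544 of 10916 over all genes), with a median of −0.32. Of these 22, 8 were below both controls on both arrays (background 25.7%) and 4 had an unadjusted p under 0.05. The isoprenoid enzyme Idi1 had 3470.4 and 2905 against 1529.7 and 1269.7 (adjusted p = 0.173) and the elongase Elovl6 1771 and 1456 against 926 and 542 (adjusted p = 0.149). Targets of the oxidative stress factor NRF2 (median −0.04, but 0.07 with the mean of a gene's probe sets or without TGF-beta1 replicate 1) held Nqo1 at 606 and 1551 against 495 and 565 and Slc7a11, the cystine transporter, at 12.9 and 69.5 against 137 and 161. Among 9 genes of alcohol and aldehyde metabolism, the retinaldehyde dehydrogenase Aldh1a1 had 6742 and 5773 against 1048 and 3228 (adjusted p = 0.257), while the acetaldehyde enzyme Aldh2 had 953 and 913 against 951 and 490.1 and Adh5 6901 and 8162 against 6809 and 7297. Of these 3 only Aldh1a1 was below both controls on both arrays, and its FGF2 signals were 609 and 494.

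Targets of p53 and apoptosis genes gave 0 of 18 calls by limma, 0 of them at an unadjusted p under 0.05 (1035 of 10916 over all genes). Their median was 0.17, and −0.06 without TGF-beta1 replicate 1. Mdm2 had 3447 and 3826 in TGF-beta1 and 3802 and 3229 with ethanol and Ccng1 10869.5 and 13101 against 12241 and 13313, close to the controls. Gadd45b had 407 and 356 against 149.8 and 692, low on replicate 1 and high on replicate 2. Hypoxia and glycolysis genes had a median of −0.25 (−0.06 on replicate 2 alone) and the FGF-ERK feedback list 0.29 (0.12 without TGF-beta1 replicate 2), both with 0 calls. Spry4 had 118 and 44.7 against 206 and 212 and Dusp6 2488 and 2156 against 2945 and 1969, below the 3492 and 5719 of the FGF2 arrays.

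Whether ethanol acted differently in TGF-beta1 and in FGF2 was tested as the difference of the ethanol effects. For it limma called 0 genes (0%). The smallest adjusted p was 0.831, and 484 genes had an unadjusted p under 0.05. Fn1 went against the label on Ethanol and TGF-beta1 replicate 1 (124) and on Ethanol and FGF2 replicate 1 (6828). Both ethanol effects thus rest in part on a doubted array, so 0 calls cannot decide whether ethanol acted alike in both growth factors. Of the 122 falls in TGF-beta1, 119 also had both Ethanol and FGF2 arrays below both FGF2 arrays, where 12.8% of all genes did, with medians of −2.81 in TGF-beta1 and −2.16 in FGF2. These comparisons share no arrays, but they share the estimate of spread and the second holds the array labelled Ethanol and FGF2 replicate 1, whose Fn1 signal was 6828. The ratio of the 3' to the 5' Gapdh probe set was 1.64 and 2.20 in FGF2 and 3.33 and 3.48 in Ethanol and FGF2, and its part in these values was not tested. These genes were selected as higher in TGF-beta1 than with ethanol, which favours lower values in other groups. Without ethanol, both FGF2 arrays stood lower for them by median, replicate 2 by more. On the log2 scale, the median of the falls was −0.39 on FGF2 replicate 1 and −1.36 on FGF2 replicate 2 relative to the TGF-beta1 mean. Knstrn, for example, had 2956 and 719 in FGF2 and 133 and 145 in Ethanol and FGF2. Of the 8 rises, 4 were higher with ethanol on both arrays in FGF2 (background 19.3%) and 1, Dtna, was lower on both (background 12.8%). Ntn4 was 2098 and 1361 in FGF2 and 1532 and 1561 in Ethanol and FGF2, and the difference between growth factors was 1.87 ± 0.36 (adjusted p = 0.831).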

How the data were processed

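The intensity values are MAS5 signals of Affymetrix mouse arrays, deposited by the authors in the series matrix; the submitters' processing notes name MAS5 and GCOS. Each array's 2% trimmed mean is 500. Of 45101 probe sets, 34945 carry 1 gene symbol (34741 matched RefSeq, GRCm38.p6), 932 several and 9160 none. A gene took its probe set with the highest mean, and 10916 of 18193 genes lay at or above the 40th percentile of mean log2(signal + 23.66). Limma 3.58.1 was fitted to all 8 arrays as 4 group means (4 residual and 4.929 prior degrees of freedom, trend) in a 2-sided test, with Benjamini-Hochberg adjustment over 10916 genes and 0.05 as threshold. It was also run on simulated data with independent noise. Those data hold no label conflict and no shared array effect, so that run is no test of the calls given here. Fold changes are on the log2(signal + 23.66) scale, which understates those of low genes.

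The comparison and the 34 gene lists (641 genes) were chosen with earlier results of these data known. Named genes are the 15 largest falls, the rises, list members past the threshold, each list's 3 largest changes and 2 brightest members, TGF-beta targets, and the 10 most divergent genes of each kind for replicate 2 and between the ethanol arrays; other genes were picked for their known role after their values were seen. The number of arrays limits the precision. Symbols of the lists that match no measured gene were not analysed here.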

Additional observations from a re-analysis of the deposited data

Results flagged for a closer look

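Dtna, the dystrobrevin gene, was flagged for opposite ethanol effects. Both Ethanol and TGF-beta1 arrays were above both TGF-beta1 arrays, and both Ethanol and FGF2 arrays below both FGF2 arrays. Dtna was not alone in this: of the 10916 genes tested, 179 were opposite in this direction and 394 in the other. For Dtna the difference of the ethanol effects was 2.91 ± 0.43 on the log2 scale (moderated SE), with an unadjusted p of 8.33e-05 and an adjusted p of 0.831 by limma. It did not pass over all genes, and both ethanol groups hold an array whose Fn1 signal goes against its label.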

How the results depend on the processing

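All 130 calls kept their direction under the 17 alternatives that tested every one, and so did the 79 that the 60th percentile filter left in the test, but many lost their side of the threshold. Against 122 falls and 8 rises, a constant of 1 gave 84 and 5, a constant of 100 gave 139 and 9, no filter 111 and 8, a 60th percentile filter 69 and 6, quantile normalization 128 and 12, the mean of a gene's probe sets 83 and 5, the 4 TGF-beta1 arrays alone 173 and 14, and no trend 74 and 4. Leaving out 1 array gave 0 to 151 falls and 0 to 11 rises. It gave 0 of each when either TGF-beta1 array was left out, and when the first ethanol array in TGF-beta1 was. Without both ethanol arrays labelled replicate 1 there were 0 falls and 0 rises (smallest adjusted p = 0.233 by limma, 935 genes at an unadjusted p under 0.05). With the replicate number as a block there were 0 falls and 0 rises (smallest adjusted p = 0.0580 by limma, 1026 genes at an unadjusted p under 0.05). Deviations of same-numbered arrays from their group means correlated at 0.046 between TGF-beta1 and Ethanol and TGF-beta1 and at 0.466 between TGF-beta1 and FGF2. They correlated at −0.438 between the ethanol groups, and at −0.132, −0.084 and 0.021 for the other pairs. Same numbers thus went together in the groups without ethanol and opposite ways in those with it. The ethanol arrays numbered 1 are the doubted ones, so correlations that involve them cannot decide on pairing. Whether same numbers are pairs is not known. The main fit does not take them as pairs, and its calls depend on that choice. The difference between growth factors gave 0 genes in each of the 17 alternatives that hold both growth factors. The cause of each shift was not tested. Medians of the NRF2, alcohol metabolism and pluripotency lists changed sign with the probe set rule, the quantile scaling and the constant of 1, in that order. Leaving out 1 of the 4 arrays turned the sign of those and of the TGF-beta target, matrix, contractile, Id and Notch, astrocyte, oligodendrocyte, p53, microglial and fibroblast medians. Signals near the added constant limit the size of measurable falls.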
